A study of Mus musculus with 24 samples.

Results

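The libraries described here are the 4 of the series in which 3134 cells with intact NIPBL were exposed for 2 h to dexamethasone or to its solvent. They were chosen by their titles, 2 libraries of empty-vector cells without IPTG in dexamethasone and 2 of the same cells in ethanol, out of 24 libraries in all. The 3134 line is a mouse mammary line that has long served for work on the glucocorticoid receptor. The cells were built with an IPTG-inducible hairpin directed at Nipbl mRNA, plus a piggyBac construct that was empty in these 4 libraries (EV). No IPTG was given in either group, so the hairpin was present but not induced. Both groups were kept in charcoal-stripped serum for 3 days, and the dexamethasone group then received 100 nM of the hormone. The series' text calls the replicates biological. It does not say from how many transduced lines or cultures they came, so p-values measure the spread between libraries. That spread was estimated from all 24 libraries together, including those with IPTG. The empty-vector cells with IPTG (2 libraries in dexamethasone, 2 in ethanol, 1 mM IPTG) are set beside them. In places, so are cells with IPTG and a construct of wild-type NIPBL (WT) or of its mutants C1, C2 or C1C2. Each of these states also had 2 libraries per treatment. Total RNA was sequenced after depletion of ribosomal RNA, and levels are given as CPM (counts scaled to the size of the library). In RNA from many cells, fewer cells of a kind and less RNA per cell cannot be told apart.

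Dexamethasone, a synthetic steroid, binds the glucocorticoid receptor, which waits in the cytoplasm bound to chaperones and moves into the nucleus once hormone binds. There it binds palindromic DNA elements near target genes and raises their transcription, and it lowers that of many genes driven by NF-kB and AP-1, among them genes for chemokines and prostaglandin synthesis. Many early products of the response are themselves brakes, such as phosphatases of MAP kinases, inhibitors of NF-kB and proteins that destabilize mRNA. NIPBL, with its partner MAU2, loads cohesin, the ring that extrudes chromatin loops.

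The dexamethasone libraries held 48976702 and 57381517 counts and the ethanol libraries 42711188 and 34557928. The first principal component of all 24 libraries accounted for 44.1% of the variance and split dexamethasone from ethanol. The names of the ethanol and dexamethasone libraries form 2 separate runs, so handling and hormone cannot be told apart. The 2 most abundant genes, Gm26917 and Gm42418, took 16.1% and 14.5% of counts in dexamethasone and 13% and 13.3% in ethanol. Of the defining markers of mammary epithelium, Krt18, Krt19, Epcam, Cdh1, Krt5 and Acta2 were too low to be tested. Of 12 luminal markers 4 could be tested, with a summed level of 77.2 to 80.2 CPM in dexamethasone and 29.5 to 30.2 CPM in ethanol, nearly all of it Gata3, and of 7 basal markers 2 could be tested. Mesenchymal markers, 7 of 9 tested, summed to 8880.4 to 8980 CPM in dexamethasone and 8359 to 8456 CPM in ethanol. The label of a mammary adenocarcinoma cell was therefore matched by few of the listed epithelial markers in these libraries, chiefly Gata3 and Krt14. Markers of immune cells summed to 8.83 to 9.28 CPM in dexamethasone and 7.52 to 8.73 CPM in ethanol, with 1 of 7 tested, and those of endothelial cells and adipocytes were at or near 0.

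Nipbl (mm10, chromosome 15, 8290617 to 8444463, minus strand) stood at 151 and 154 CPM in dexamethasone, against 186 and 177 CPM in ethanol. The groups did not overlap and the log2 change was -0.25 ± 0.09 (SE; edgeR adjusted p = 0.0472). That call was lost with any 1 of the 4 libraries left out (edgeR adjusted p up to 0.199), and the change was 0.00 once a GC content trend, described below, was removed. Mau2 had 68.5 CPM in each dexamethasone library, against 62.4 and 60.4 CPM in ethanol (log2 change 0.16 ± 0.06 SE; edgeR adjusted p = 0.0331), and likewise lost its call without any 1 library and without the trend. Nr3c1, the gene of the glucocorticoid receptor itself, fell to 105 CPM in both dexamethasone libraries, against 196 and 199.7 CPM in ethanol (log2 change -0.92 ± 0.05 SE; edgeR adjusted p = 7.43e-14), and its change was -0.77 with the trend removed.

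Across all genes, 6438 of 16934 tested passed at an adjusted p under 0.05 (38%; edgeR's quasi-likelihood test, Benjamini-Hochberg adjustment), 3359 higher (19.8%) and 3079 lower (18.2%). Most of those calls were small: 2434 of the higher (72.5%) and 2217 of the lower (72.0%) were under 1.5-fold. At least 2-fold changes numbered 578 higher (3.41%) and 364 lower (2.15%). A test against a change of 1.5-fold, which asks that the change exceed that size, called 471 higher (2.78%) and 215 lower (1.27%). Among genes with a mean of at least 1 CPM the rises reached 364-fold and the falls 30.7-fold.

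**Figure D1:**
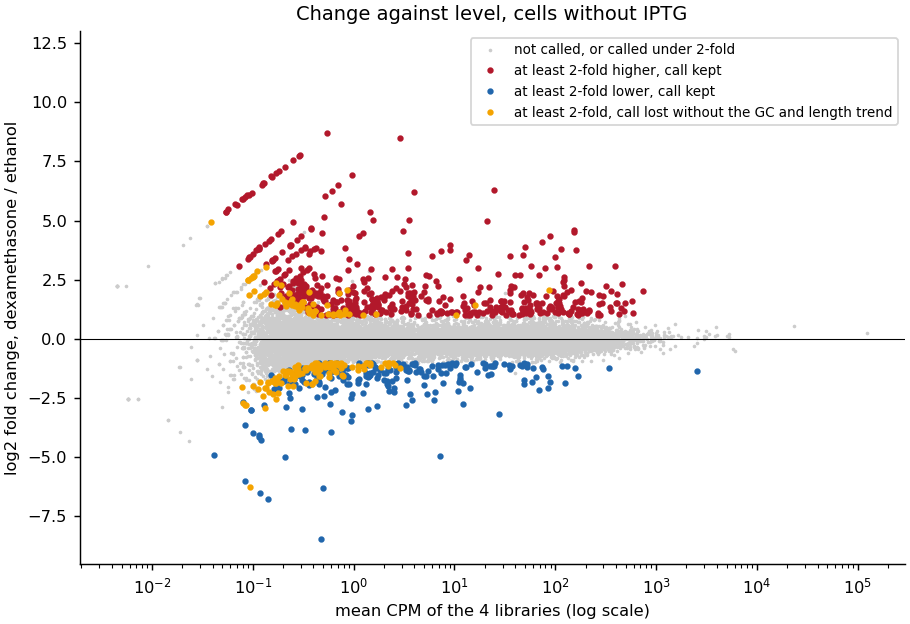
Log2 fold change (dexamethasone over ethanol, vertical axis) against the mean CPM of the 4 libraries (log axis), 1 point per tested gene. Coloured points are the 942 genes called and changed at least 2-fold, and orange marks those whose call was lost once the GC content and length trend was removed, most of them at low levels. Straight diagonal runs at low levels are genes with few or 0 counts in 1 group, where the fitted change depends on the prior count.

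Among named gene models with a mean of at least 1 CPM, the 15 largest rises ran from 13.2-fold upward. Fam107a (chromosome 14, 8296274 to 8318023), an actin-associated stress gene, had 5.92 and 5.47 CPM in dexamethasone, against 0.0233 and 0 CPM in ethanol. That is 568 counts against 1 count, a ratio of 437 (95% exact interval 78.2 to 17300.3, which covers counting error only). Lcn2 (chromosome 2, 32384633 to 32388252), the iron-siderophore binding protein lipocalin 2, reached 47.0 and 50.2 CPM in dexamethasone, against 0.444 and 0.846 CPM in ethanol. Its rise was 77.6-fold (log2 6.28 ± 0.36 SE; edgeR adjusted p = 1.06e-08). Orm3, which with Orm1 encodes an orosomucoid, a plasma acute phase glycoprotein, stood at 262 and 332 CPM in dexamethasone, against 11.2 and 13.2 CPM in ethanol. Its neighbour Orm1 stood at 12.9 and 14.5 CPM in dexamethasone, against 0.957 and 1.14 CPM in ethanol. In each of these genes both dexamethasone libraries lay far above both ethanol libraries.

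Other large rises fell on regulators. Spsb1, a substrate adaptor of an E3 ubiquitin ligase, had 169 and 165 CPM in dexamethasone, against 8.08 and 8.44 CPM in ethanol (20.3-fold; edgeR adjusted p = 1.2e-21). Arrdc2, an arrestin-domain gene, had 95 and 94.6 CPM in dexamethasone, against 5.51 and 7.47 CPM in ethanol (14.8-fold; edgeR adjusted p = 2.75e-15). Depp1 had 16.7 CPM in each dexamethasone library, against 1.33 and 1.14 CPM in ethanol. Vmn1r43, listed as a vomeronasal receptor, rose 73.4-fold to 7.34 and 8.25 CPM in dexamethasone, against 0.117 and 0.0876 CPM in ethanol. It overlaps Vmn1r42 on the same strand over 1.19% of its length, and near-identical family members make counts of single receptors uncertain. Also among the 15 largest rises were Slc25a48, Prr15l, Slc10a6, Tsc22d3, Dusp1 and Per1, with fold changes of 41.6, 32.6, 22.5, 22.9, 13.8 and 13.4.

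Of the genes at least 2-fold higher, 81 had no more than 3 counts in the 2 ethanol libraries together, 41 of them protein coding, and 8 averaged at least 1 CPM in dexamethasone. Greb1, best known as an oestrogen-induced gene, had 41 and 103 counts in dexamethasone and 1 in ethanol, so its dexamethasone libraries differed between themselves. Klf15, a transcription factor of amino acid and lipid metabolism, had 48 and 52 counts in dexamethasone and 2 in ethanol, a ratio of 38.5 (95% exact interval 10.4 to 322). Pkd1l2, a polycystin family gene, had 52 and 50 counts in dexamethasone and 1 in ethanol. In the other direction 23 genes at least 2-fold lower had no more than 3 counts in the dexamethasone libraries. Those libraries held more counts, so the limit is harder to meet there and the numbers 81 and 23 cannot be compared. Genes at this limit entered the test through their counts in other groups, and the share of all tested genes under it was not counted.

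**Figure D2:**
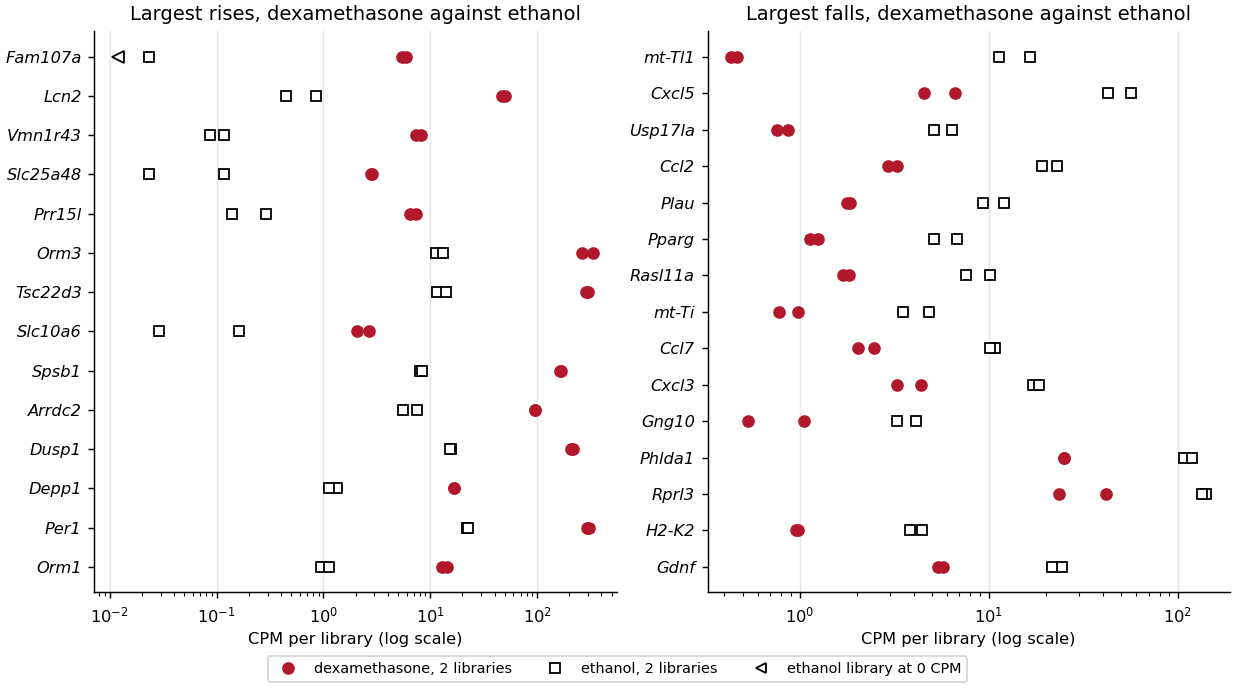
CPM in each library (log axis) of 14 of the 15 named genes with the largest rises (left) and the 15 with the largest falls (right), with dexamethasone as filled red circles and ethanol as open squares, 2 libraries each. In all 29 genes both libraries of 1 treatment lie beyond both of the other. Fam107a has 1 ethanol library at 0 CPM, drawn as a triangle at the left edge.

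Of the 15 largest falls, Cxcl5, Ccl2, Ccl7 and Cxcl3 encode chemokines. Cxcl5 (chromosome 5, 90759360 to 90761624), a neutrophil attractant, had 6.6 and 4.55 CPM in dexamethasone, against 56.5 and 42.5 CPM in ethanol (9.0-fold lower; log2 change -3.17 ± 0.24 SE; edgeR adjusted p = 2.04e-07). Ccl2 (chromosome 11, 82035571 to 82037453), a monocyte attractant, had 3.27 and 2.94 CPM in dexamethasone, against 22.9 and 19.1 CPM in ethanol (6.8-fold lower; edgeR adjusted p = 9.04e-14). Plau, the urokinase plasminogen activator, had 1.85 and 1.78 CPM in dexamethasone, against 9.31 and 12.1 CPM in ethanol (5.9-fold lower; edgeR adjusted p = 2.37e-10). Pparg, the master regulator of fat cell differentiation, had 1.13 and 1.25 CPM in dexamethasone, against 5.16 and 6.83 CPM in ethanol (4.99-fold lower). Gdnf, a neurotrophic factor, had 5.74 and 5.38 CPM in dexamethasone, against 24.4 and 21.7 CPM in ethanol, and Phlda1, a pleckstrin-domain gene, had 25 CPM in each dexamethasone library, against 107 and 118 CPM in ethanol. All of these groups were apart. Phlda1 overlaps Gm28592 on the other strand over 33.0% of its length, and since the strand setting of the counting is not given in the sources used here, the 2 cannot be told apart.

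The list of falls also held short RNAs. The mitochondrial transfer RNA mt-Tl1 had 0.467 and 0.435 CPM in dexamethasone, against 11.3 and 16.6 CPM in ethanol. The mitochondrial ribosomal RNA mt-Rnr2, which lies beside it, went the other way, with 981 and 642 CPM in dexamethasone, against 270.3 and 487 CPM in ethanol (log2 change 1.10 ± 0.34 SE; edgeR adjusted p = 0.0221), a call that was lost without replicate 1 of either treatment (edgeR adjusted p up to 0.193). Rprl3, an RNA component of a ribonuclease P family, had 41.7 and 23.5 CPM in dexamethasone, against 140.4 and 134 CPM in ethanol. Lars2 moved with mt-Rnr2, with 907 and 641 CPM in dexamethasone, against 106 and 203 CPM in ethanol. Across the 4 libraries both followed the order of the share of counts taken by Gm26917 and Gm42418, and a link was not tested. In a fit of the 4 libraries alone, Rprl3 and Lars2 missed the threshold (edgeR adjusted p = 0.0631 and 0.0893). Mitochondrially encoded protein genes had a median log2 change of -0.41, or 0.06 with the GC content trend removed, and 0 of 13 passed. The mitochondrial share of counts was 1.14% and 1.18% in dexamethasone and 1.34% and 1.68% in ethanol.

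Among named gene models called and changed at least 2-fold, the largest rise by absolute level was that of Gapdh. This glycolytic enzyme is often used as a reference gene. It had 1276 and 1112 CPM in dexamethasone, against 291 and 300.4 CPM in ethanol (4.04-fold; log2 2.01 ± 0.06 SE; edgeR adjusted p = 4.86e-19), with groups far apart. Abhd2, a lipid hydrolase, had 743 and 727 CPM in dexamethasone, against 263 and 252 CPM in ethanol. Bcl2l1, which encodes the survival protein Bcl-xL, had 664 and 617 CPM in dexamethasone, against 173 and 168 CPM in ethanol, and Zfp36l2, an mRNA decay factor, had 877 and 863 CPM in dexamethasone, against 279.8 and 285 CPM in ethanol. Within the same set, the largest absolute fall was that of Thbs1, the matrix glycoprotein thrombospondin. It had 1383 and 1479.8 CPM in dexamethasone, against 3471 and 3923 CPM in ethanol (2.58-fold lower; edgeR adjusted p = 4.31e-05). Irs1, an insulin receptor adaptor, followed in this set with 216 and 198 CPM in dexamethasone, against 493 and 469 CPM in ethanol. Btg1, an antiproliferative gene, had 89.5 and 83.5 CPM in dexamethasone, against 248 and 258 CPM in ethanol.

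The size of the change followed the GC content of the transcripts. Over the 12343 genes with a mean of at least 1 CPM, which are not independent replicates, the Spearman correlation of GC content with the log2 change was 0.61, while that with transcript length was -0.11. In 20 bins of equal gene number the median change ran from -0.53 in the bin of lowest GC content (median 37.5%) to 0.25 in that of the highest (median 60.8%). In the lowest bin 44.7% of genes were called lower and 1.42% higher, and in the highest bin 6.49% were called lower and 43.6% higher. The trend was present in single libraries. The median log2 deviation of the genes of highest GC content minus that of the genes of lowest GC content (upper and lower quartile) was 0.27 and 0.23 in the dexamethasone libraries, against -0.26 and -0.23 in the ethanol libraries. Over all 24 libraries it was 0.10 to 0.27 in the 12 dexamethasone libraries and -0.26 to -0.15 in the 12 ethanol libraries, without overlap. Its part in the calls was measured by removal, and whether it stems from library handling or from the cells cannot be told apart.

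**Figure D3:**
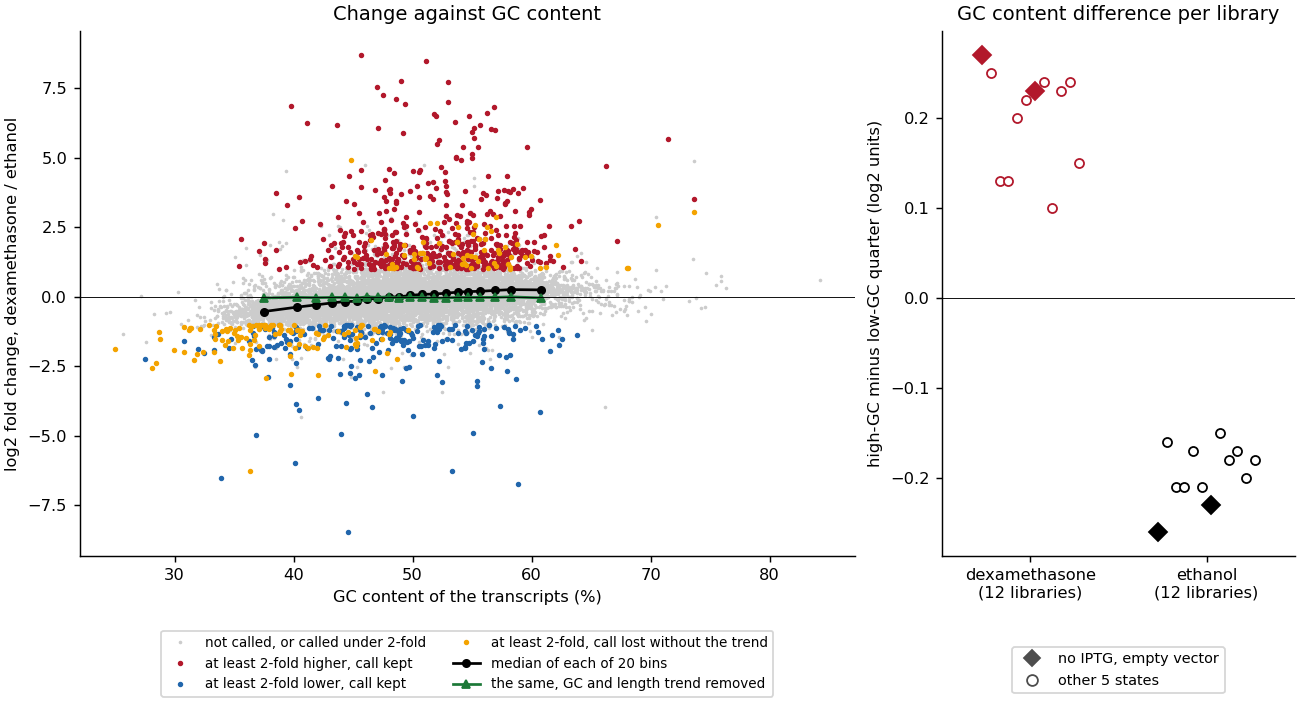
Left, log2 fold change (dexamethasone over ethanol) against GC content of the transcripts (%), 1 point per tested gene, with the median of each of 20 bins before (black circles, -0.53 to 0.26) and after (green triangles, near 0) removal of the trend. Right, the log2 deviation of high-GC minus low-GC genes in each library, where the 12 dexamethasone libraries lie above 0 and the 12 ethanol libraries below it.

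With a smooth trend on GC content and length removed in each library, 1699 genes were called higher (10%) and 1961 lower (11.6%). Of the 6438 original calls 2798 were kept in the same direction (43.5%) and 3640 were not. Calls under 1.5-fold were kept in 26.6% of the higher and 35.7% of the lower genes. Large changes depended on it less: 509 of the 578 genes at least 2-fold higher were still called (88.1%), as were 247 of the 364 at least 2-fold lower (67.9%). The large rises had a median GC content of 52.8% and the large falls one of 44.6%, beside 49.3% over all tested genes. In the fit with the trend removed, 450 of the 578 large rises and 212 of the 364 large falls were both called and still at least 2-fold. When each change was taken relative to the median of its GC bin instead, 512 large rises (88.6%) and 267 large falls (73.4%) remained at least 2-fold.

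The share of large changes that kept the call differed with the level of the gene. Over 10 CPM, 184 of 187 large rises (98.4%) and 52 of 52 large falls were still called without the trend. Between 1 and 10 CPM the counts were 124 of 126 (98.4%) and 86 of 102 (84.3%). Under 1 CPM they were 201 of 265 (75.8%) and 109 of 210 (51.9%). The named genes with a mean of at least 1 CPM that lost the call were Mir6236, Ftl1-ps1 and Padi1 among the rises and Wincr1 and Mir703 among the falls. Mir703 had 1.11 and 1.18 CPM in dexamethasone, against 2.5 and 2.74 CPM in ethanol, and at a GC content of 31.2% its log2 change of -1.19 became -0.36 without the trend (edgeR adjusted p = 0.365). Mir6236 had 189.6 and 92.2 CPM in dexamethasone, against 23.1 and 44.2 CPM in ethanol, so its libraries differed within both groups. Padi1, a peptidylarginine deiminase, had 12.2 and 15.6 CPM in dexamethasone, against 6.26 and 7.68 CPM in ethanol, and its call was also lost without replicate 1 or 2 of ethanol or replicate 2 of dexamethasone.

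Protein-coding genes were 71.8% of the tested genes but 49.9% (470) of the 942 with a large change. Among protein-coding genes 2.87% were at least 2-fold higher and 0.995% at least 2-fold lower. Among processed pseudogenes, whose median level was 0.397 CPM, the shares were 8.74% and 4.83%. Gene models awaiting experimental support had 3.12% higher and 6.42% lower, and long intergenic RNAs 4.09% and 4.41%. Of the large rises 34 overlapped another gene on the same strand and 129 on the opposite strand, and of the large falls 48 and 51. The share of all tested genes with such an overlap was not counted, so nothing is read from these numbers.

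The gene lists, here and below, were chosen with earlier results of these data known, so their shares are a description. Of a list of 35 genes taken as induced by glucocorticoids, 30 could be tested. Of these 26 rose and 0 fell, 24 of them at least 2-fold, beside 19.8% called higher over all genes. The median log2 change was 2.33, against 0.01 over all tested genes, and 2.25 with the trend removed. In that fit 26 were called higher and 1, Angptl4, lower (86.7% and 3.33%, beside 10% and 11.6% over all genes). Per1 (chromosome 11, 69095217 to 69109960), a repressor of the circadian clock, had 291 and 308 CPM in dexamethasone, against 22.2 and 22.6 CPM in ethanol (log2 3.74 ± 0.05 SE; edgeR adjusted p = 1.99e-25), the smallest p among the genes named. Sgk1 (chromosome 10, 21882184 to 21999903), a kinase that acts on ion channels, had 389.6 and 377 CPM in dexamethasone, against 43.6 and 46.0 CPM in ethanol (8.57-fold; edgeR adjusted p = 1.6e-22). Tsc22d3, which encodes GILZ, a protein that binds NF-kB and AP-1 subunits, had 298 and 286 CPM in dexamethasone, against 11.5 and 14.1 CPM in ethanol (22.9-fold; edgeR adjusted p = 8.49e-20). In all 3 genes the replicates of a treatment lay close together.

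Within the list, Ampd3, an AMP deaminase, had 290.1 and 318 CPM in dexamethasone, against 57.8 and 59.0 CPM in ethanol. Suox, the sulfite oxidase, had 81.2 and 73.2 CPM in dexamethasone, against 11.0 and 12.9 CPM in ethanol. Of the 4 that did not pass, Angptl4, Bcl6 and Lpin1 had log2 changes of -0.24, 0.28 and -0.37, and Crispld2, at 0.146 CPM in dexamethasone and 0.0379 CPM in ethanol, had 1.87 (edgeR adjusted p = 0.0639). Sult1a1 was listed at 0 CPM in ethanol and averaged 0.368 CPM in dexamethasone. Tat, Pck1, Mt2, Zbtb16 and Cdkn1c of the list were too low to be tested.

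**Figure D4:**
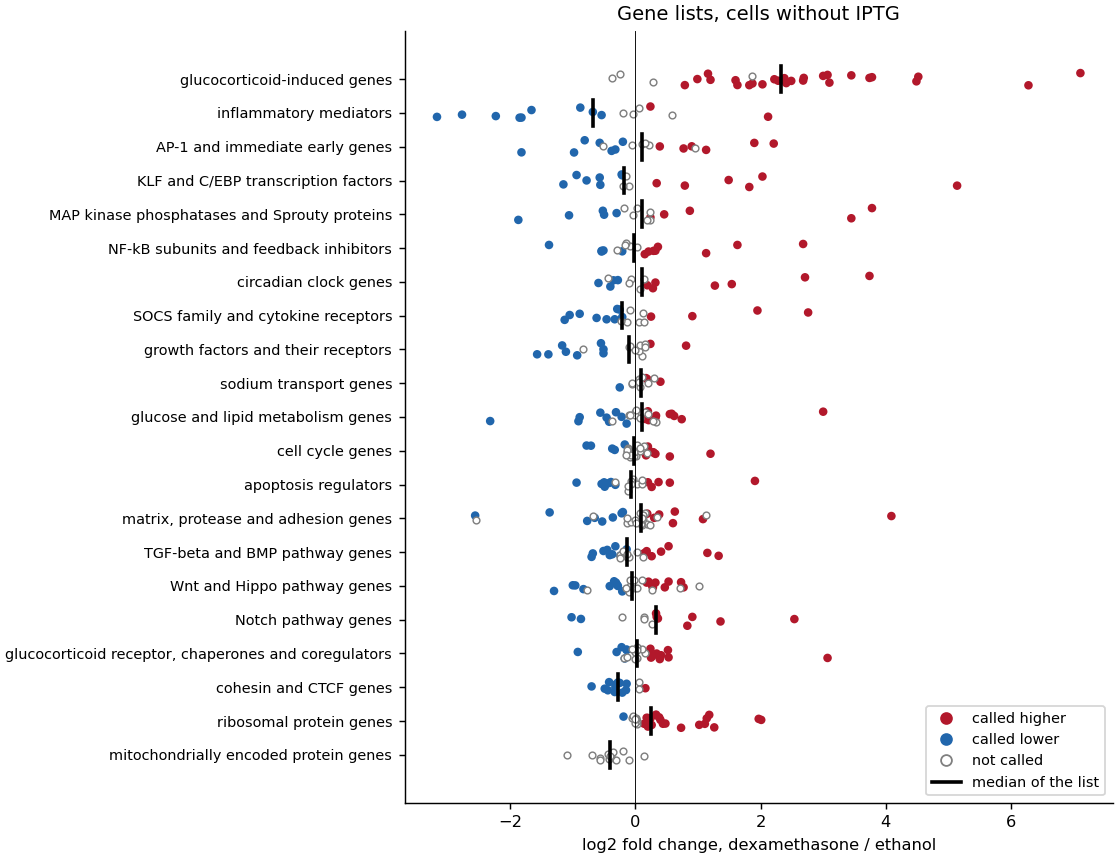
Log2 fold change (dexamethasone over ethanol, horizontal axis) of each tested member of 21 gene lists, red where called higher, blue where called lower and open where not called, with the median of each list as a black bar. The list of glucocorticoid-induced genes has a median of 2.33 and that of inflammatory mediators one of -0.68, while the other medians lie between -0.41 and 0.33.

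Of 27 genes for inflammatory mediators 15 could be tested, of which 9 fell, 2 rose and 4 did not pass, beside 18.2% called lower over all genes. The median log2 change was -0.68, and -0.42 with the trend removed. In that fit 8 were called lower and 1 higher (53.3% and 6.67%, beside 11.6% and 10% over all genes). Besides Cxcl5 and Ccl2, the falls included Ptgs2, the inducible prostaglandin synthase COX-2, with 38 and 39.8 CPM in dexamethasone, against 144 and 130.5 CPM in ethanol (3.53-fold lower; edgeR adjusted p = 2.55e-14). Cxcl1 had 4.91 and 5.6 CPM in dexamethasone, against 17.4 and 20.8 CPM in ethanol, and Cxcl10, an attractant of T cells, had 1.51 and 1.01 CPM in dexamethasone, against 4.25 and 3.65 CPM in ethanol. The groups did not overlap in any of these. The 2 that rose were Csf3, the granulocyte colony-stimulating factor (mean 1.14 CPM in dexamethasone and 0.263 CPM in ethanol), and Lif (log2 change 0.24), whose call was lost without the trend (log2 change 0.06). Il6, Tnf, Il1a and Il1b were too low to be tested, so these cytokines could not be compared.

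Promoter sequences of RefSeq (build GRCm38.p6, 250 bases before to 50 after the start) were matched for 10231 of the 16934 tested genes, 191 of 308 large rises and 58 of 138 large falls with a mean of at least 1 CPM and a call kept without the trend. The palindromic glucocorticoid element was searched as AGAACA followed by TGTTCT with any 3 bases between, and it occurred in 2 windows in all (0.0195%), of which 1 belonged to a large rise, Sgk1. The single element, AGAACA or TGTTCT, occurred in 15% of all windows, 18.8% of those of large rises and 15.5% of those of large falls. Each of these spellings is the other strand's reading of its partner, and every palindrome also holds them. The AP-1 letters TGACTCA or TGAGTCA occurred in 4.88% of all windows, 7.85% of those of large rises and 10.3% of those of large falls. The NF-kB letters GGGACTTTC or GGAATTTCC, on either strand, occurred in 0.86% of all windows, 2.62% (5) of those of large rises and 6.9% (4) of those of large falls. These are matches of letters in a short window, and many known elements of the receptor lie far outside it.

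To show such matches beside the response, the promoter of the rise with the palindrome and those of 2 falls with an NF-kB match are given, all from the plus strand, with the match in capitals. The Sgk1 window is chr10:21993640-21993939, which lies inside the gene as annotated in the files, since Sgk1 has several starts, and its match lies 189 to 175 bases before the start used by RefSeq. The Ier3 window is chr17:35821463-35821762, with the match 139 to 131 bases before the start. The Cxcl1 window is chr5:90890995-90891294, with the match 70 to 62 bases before the start.
Sgk1: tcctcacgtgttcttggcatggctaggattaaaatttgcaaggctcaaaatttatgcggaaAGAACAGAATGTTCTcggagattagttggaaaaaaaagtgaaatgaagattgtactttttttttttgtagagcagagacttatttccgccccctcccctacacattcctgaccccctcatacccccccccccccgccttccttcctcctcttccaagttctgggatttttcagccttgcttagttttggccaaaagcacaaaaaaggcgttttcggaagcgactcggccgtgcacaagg
Ier3: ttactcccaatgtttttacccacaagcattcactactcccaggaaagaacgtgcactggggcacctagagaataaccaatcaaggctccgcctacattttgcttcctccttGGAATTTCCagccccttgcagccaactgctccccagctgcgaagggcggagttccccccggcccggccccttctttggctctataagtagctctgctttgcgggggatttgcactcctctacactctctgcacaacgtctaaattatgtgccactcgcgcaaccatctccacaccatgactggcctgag
Cxcl1: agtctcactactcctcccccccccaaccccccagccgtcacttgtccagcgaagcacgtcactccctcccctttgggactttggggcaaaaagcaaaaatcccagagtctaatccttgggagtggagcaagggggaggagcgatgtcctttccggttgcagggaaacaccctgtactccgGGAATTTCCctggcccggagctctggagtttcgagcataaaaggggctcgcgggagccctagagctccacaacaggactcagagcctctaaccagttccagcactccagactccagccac
Of these 3 genes Sgk1 rose 8.57-fold, Ier3 fell 3.52-fold and Cxcl1 fell 3.61-fold.

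Among NF-kB subunits and their feedback inhibitors 8 of 18 rose and 5 fell (44.4% and 27.8%, beside 19.8% and 18.2% over all genes), with a median of -0.02. The 3 rises of at least 2-fold were in feedback inhibitors, as was the 1 fall of that size, Tnip3. It averaged 0.138 CPM in dexamethasone and 0.341 CPM in ethanol, and its call was lost without the trend. The inhibitor Cyld fell as well (log2 change -0.54, and -0.3 without the trend, where it was still called). Zfp36, which encodes the mRNA decay factor tristetraprolin, had 67.2 and 69.7 CPM in dexamethasone, against 10.3 and 11.1 CPM in ethanol (6.42-fold; edgeR adjusted p = 4.19e-18). Nfkbia, which encodes the inhibitor IkBα, had 84.0 and 78.2 CPM in dexamethasone, against 27.0 and 25.5 CPM in ethanol (3.09-fold; edgeR adjusted p = 1.09e-17). Tnfaip3, the ubiquitin-editing enzyme A20, had 12.4 and 13.8 CPM in dexamethasone, against 6.0 and 5.95 CPM in ethanol (2.19-fold). Of the subunits, Rel fell to 24.2 and 23.5 CPM in dexamethasone, against 33.4 and 36.1 CPM in ethanol, and Rela rose by 0.32 on the log2 scale but was at 0.05, and not called, without the trend. With the trend removed the list had 3 higher and 6 lower calls (16.7% and 33.3%, beside 10% and 11.6% over all genes).

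Of 16 MAP kinase phosphatases and Sprouty proteins 5 rose and 5 fell (31.2% each, beside 19.8% and 18.2% over all genes), with a median of 0.11. Without the trend 4 rose and 5 fell (25% and 31.2%, beside 10% and 11.6% over all genes). Dusp1, a nuclear phosphatase of p38 and JNK, had 209 and 217 CPM in dexamethasone, against 15.5 and 15.4 CPM in ethanol (13.8-fold; edgeR adjusted p = 9.46e-14). Errfi1, an inhibitor of the EGF receptor kept in this list, had 168 and 200.3 CPM in dexamethasone, against 15.6 and 18.1 CPM in ethanol (11.0-fold). Dusp4, a related nuclear phosphatase, moved the other way, with 53.9 CPM in each dexamethasone library, against 196 and 198 CPM in ethanol (3.65-fold lower; edgeR adjusted p = 3.95e-18). Dusp8 had 5.11 and 6.14 CPM in dexamethasone, against 11.9 and 11.7 CPM in ethanol. Dusp1 and Dusp4, of 1 enzyme family, thus changed in opposite directions.

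Of 19 AP-1 and immediate early genes 6 rose and 7 fell (31.6% and 36.8%, beside 19.8% and 18.2% over all genes), with a median of 0.10. With the trend removed 5 were higher and 8 lower (26.3% and 42.1%, beside 10% and 11.6% over all genes), at a median of -0.20. Ier3, an early response gene of cell survival, had 27.1 and 24.7 CPM in dexamethasone, against 96.1 and 85.9 CPM in ethanol (3.52-fold lower; edgeR adjusted p = 2e-16). Maff, a small Maf protein, had 39.9 and 32.6 CPM in dexamethasone, against 8.38 and 7.21 CPM in ethanol (4.62-fold; edgeR adjusted p = 1.75e-12). Fos had 1.25 and 1.56 CPM in dexamethasone, against 0.374 and 0.379 CPM in ethanol, a rise at a low level. Jun fell by 0.57 on the log2 scale and Jund rose by 0.90, though Jund overlaps Gm11175 on the other strand over 52.6% of its length.

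Among KLF and C/EBP transcription factors 6 of 16 rose and 7 fell (37.5% and 43.8%, beside 19.8% and 18.2% over all genes), with a median of -0.18. Without the trend 5 rose and 6 fell (31.2% and 37.5%, beside 10% and 11.6% over all genes). Cebpb, a partner of the receptor in metabolic and acute phase genes, had 673 and 477 CPM in dexamethasone, against 141 CPM in each ethanol library (4.07-fold; edgeR adjusted p = 1.08e-08), so its dexamethasone libraries lay apart from each other but well above ethanol. Cebpd had 20.2 and 17.3 CPM in dexamethasone, against 5.02 and 5.6 CPM in ethanol (3.54-fold). Klf9 had 77.1 and 69.8 CPM in dexamethasone, against 42.5 and 42.2 CPM in ethanol. Klf3 had 44.3 and 45.4 CPM in dexamethasone, against 84.4 and 88.5 CPM in ethanol, and Klf10, induced by TGF-beta in other cells, fell by 1.15 on the log2 scale. The rises thus lay in Klf2, Klf9, Klf13, Klf15, Cebpb and Cebpd and the falls in the other called members. The calls of Klf13, Klf7 and Cebpz were lost without the trend (log2 changes of 0.13, -0.15 and -0.05).

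Of 16 circadian genes 7 rose and 4 fell (43.8% and 25%, beside 19.8% and 18.2% over all genes), with a median of 0.10. Without the trend 5 rose and 2 fell (31.2% and 12.5%, beside 10% and 11.6% over all genes). Besides Per1, Per2 had 43.9 and 62.8 CPM in dexamethasone, against 15.8 and 21.2 CPM in ethanol (2.91-fold; edgeR adjusted p = 0.000194), and missed the threshold in a fit of the 4 libraries alone (edgeR adjusted p = 0.0743). Nfil3, a repressor of D-box genes, had 123 and 114 CPM in dexamethasone, against 16.7 and 19.6 CPM in ethanol (6.56-fold). Ciart, another repressor, had 5.49 and 5.58 CPM in dexamethasone, against 2.75 and 1.78 CPM in ethanol. Bhlhe40 fell to 65.2 and 59.8 CPM in dexamethasone, against 88.7 and 100.1 CPM in ethanol, and the activators Arntl and Clock had log2 changes of 0.14, which did not pass, and -0.28, which did but was lost without the trend (0.00).

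In the list of SOCS proteins, which damp cytokine signalling, and cytokine receptors 4 of 19 rose and 9 fell (21.1% and 47.4%, beside 19.8% and 18.2% over all genes), with a median of -0.21. The share of rises was thus near that over all genes. Without the trend 3 rose and 6 fell (15.8% and 31.6%, beside 10% and 11.6% over all genes). Socs2, which restrains growth hormone signalling, had 48.0 and 45.5 CPM in dexamethasone, against 6.42 and 7.41 CPM in ethanol (6.78-fold; edgeR adjusted p = 4.77e-16). Socs5 had 85.0 and 80.2 CPM in dexamethasone, against 181 and 179 CPM in ethanol (2.18-fold lower), and Socs1 and Socs3 fell by 0.89 and 1.05 on the log2 scale. The SOCS genes that were called therefore split into Socs2 on 1 side and Socs1, Socs3, Socs4, Socs5 and Socs6 on the other, of which Socs4 and Socs6 lost their calls without the trend (log2 changes of -0.02 and -0.09). Il6ra, the interleukin 6 receptor, had 76.2 and 77.2 CPM in dexamethasone, against 19.5 and 20.2 CPM in ethanol (3.87-fold; edgeR adjusted p = 1.42e-17). Il1r1, the signalling receptor of interleukin 1, fell to 17.0 and 17.6 CPM in dexamethasone, against 25.7 and 27.6 CPM in ethanol.

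Among growth factors and their receptors 2 of 19 rose and 8 fell (10.5% and 42.1%, beside 19.8% and 18.2% over all genes), with 9 not passing and a median of -0.11, or -0.34 with the trend removed. The EGF family ligands Ereg, Areg, Hbegf and Btc all fell. Ereg had 9.45 and 9.01 CPM in dexamethasone, against 23.9 and 24.5 CPM in ethanol (2.62-fold lower; edgeR adjusted p = 2.42e-11). Areg had 2.76 and 2.37 CPM in dexamethasone, against 5.6 and 5.46 CPM in ethanol, and Hbegf had 2.54 and 2.52 CPM in dexamethasone, against 7.03 and 8.06 CPM in ethanol. Kitl, the ligand of the KIT receptor, rose to 325 and 289 CPM in dexamethasone, against 176 and 174 CPM in ethanol (1.76-fold). In the TGF-beta and BMP list 8 of 25 rose and 9 fell (32% and 36%, beside 19.8% and 18.2% over all genes). Without the trend 6 rose and 10 fell (24% and 40%, beside 10% and 11.6% over all genes). Tgfbr3, the coreceptor betaglycan, had 138 and 135 CPM in dexamethasone, against 63.7 and 59.3 CPM in ethanol (2.22-fold). The BMP target Id1 had 148 and 158 CPM in dexamethasone, against 56.9 and 64.7 CPM in ethanol (2.52-fold), and Id3 rose as well, while the inhibitory Smad6 fell to 9.03 and 10.3 CPM in dexamethasone, against 14.8 and 16.2 CPM in ethanol.

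In the Notch list 7 of 13 rose and 2 fell (53.8% and 15.4%, beside 19.8% and 18.2% over all genes), with a median of 0.33. Without the trend 3 rose and 2 fell (23.1% and 15.4%, beside 10% and 11.6% over all genes), at a median of 0.08. Notch4 had 5.14 and 5.98 CPM in dexamethasone, against 1.1 and 0.788 CPM in ethanol (5.82-fold; edgeR adjusted p = 2.54e-07). Lfng, a sugar transferase that modifies Notch, had 40.4 and 43.0 CPM in dexamethasone, against 15.6 and 17.0 CPM in ethanol (2.57-fold). The ligand Jag1 had 33.4 and 34.2 CPM in dexamethasone, against 18 and 18.1 CPM in ethanol. Rbpj, the DNA-binding partner of Notch, fell to 79.9 and 79.8 CPM in dexamethasone, against 149 and 143 CPM in ethanol (1.83-fold lower), and the Notch target Hes1 fell by 1.02 on the log2 scale. The Wnt and Hippo list had 9 of 32 higher and 11 lower (28.1% and 34.4%, beside 19.8% and 18.2% over all genes). Without the trend 3 were higher, near the share over all genes, and 12 lower (9.38% and 37.5%, beside 10% and 11.6% over all genes). Lrp5 was higher (189 and 198 CPM in dexamethasone, against 113 and 115 CPM in ethanol) and Ajuba was lower (45.8 and 46.7 CPM in dexamethasone, against 79.9 and 84.1 CPM in ethanol).

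In glucose and lipid metabolism 12 of 32 rose and 9 fell (37.5% and 28.1%, beside 19.8% and 18.2% over all genes), with a median of 0.11. Without the trend the balance turned, with 7 higher and 9 lower at a median of -0.03 (21.9% and 28.1%, beside 10% and 11.6% over all genes). Pdk4, a kinase that shuts off pyruvate oxidation, had 30.6 and 30.4 CPM in dexamethasone, against 4.04 and 3.53 CPM in ethanol (8.0-fold; edgeR adjusted p = 2.4e-16). Hk2, a hexokinase, had 144 CPM in each dexamethasone library, against 97.2 and 90.1 CPM in ethanol, and Pnpla2, the triglyceride lipase ATGL, had 46.0 and 43.2 CPM in dexamethasone, against 30.5 and 29.0 CPM in ethanol. Of sodium transport genes, a textbook group of corticosteroid targets in kidney, 3 of 12 rose and 1 fell (25% and 8.33%, beside 19.8% and 18.2% over all genes), none of them by 2-fold. Without the trend 1 rose and 1 fell (8.33% each, beside 10% and 11.6% over all genes). Scnn1b and Scnn1g were too low to be tested, and Scnn1a changed by 0.08 on the log2 scale, which did not pass.

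Of 27 cell cycle genes 7 rose and 5 fell, with a median of -0.02. These shares (25.9% and 18.5%) were near the 19.8% and 18.2% over all genes. Without the trend 4 rose and 6 fell (14.8% and 22.2%, beside 10% and 11.6% over all genes). Among cyclin-dependent kinase inhibitors Cdkn1a and Cdkn1b went opposite ways. Cdkn1a, which encodes p21, had 283 and 258 CPM in dexamethasone, against 124 and 112 CPM in ethanol (2.29-fold; edgeR adjusted p = 4.16e-13). Cdkn1b, which encodes p27, had 119 and 113 CPM in dexamethasone, against 198 and 199 CPM in ethanol (1.71-fold lower; edgeR adjusted p = 5.4e-09). The inhibitors Cdkn2b, Cdkn2c and Cdkn2d had log2 changes of -0.07, -0.13 and -0.15, which did not pass. Without the trend they were called lower, at -0.32, -0.34 and -0.4. Among apoptosis regulators 5 of 21 rose and 7 fell (23.8% and 33.3%, beside 19.8% and 18.2% over all genes). Without the trend 3 rose and 7 fell (14.3% and 33.3%, beside 10% and 11.6% over all genes). Beside Bcl2l1, the caspase 8 inhibitor Cflar had 143 and 141 CPM in dexamethasone, against 99.4 and 94.9 CPM in ethanol, while Bcl2 had 33.8 and 31.6 CPM in dexamethasone, against 45.8 and 46.0 CPM in ethanol, so the related survival genes Bcl2l1 and Bcl2 moved apart. Xiap fell by 0.42 on the log2 scale but was at 0.00 without the trend.

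Of 33 matrix, protease and adhesion genes 7 rose and 8 fell, with a median of 0.09. These shares (21.2% and 24.2%) were near the 19.8% and 18.2% over all genes. Without the trend 5 rose and 6 fell (15.2% and 18.2%, beside 10% and 11.6% over all genes). Of the genes for plasminogen activators and their receptor, Plau, Plat (log2 change -0.53) and Plaur (-0.77) fell, and Plat missed the threshold without the trend (edgeR adjusted p = 0.053). Itga5, the fibronectin receptor subunit, had 249 and 248 CPM in dexamethasone, against 122 and 113 CPM in ethanol (2.11-fold). The basement membrane chains Col4a1 and Col4a2, which are transcribed from opposite strands of 1 promoter, rose together, with 1882 and 1859 CPM in dexamethasone, against 1199 and 1211 CPM in ethanol, for Col4a1 and with 1159 and 1185 CPM in dexamethasone, against 778 and 772 CPM in ethanol, for Col4a2.

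Of the receptor's chaperones and coregulators 9 of 26 rose and 6 fell (34.6% and 23.1%, beside 19.8% and 18.2% over all genes), and 4 rose and 3 fell without the trend (15.4% and 11.5%, beside 10% and 11.6% over all genes). Fkbp5, an immunophilin that lowers the receptor's hormone affinity, had 698 and 708 CPM in dexamethasone, against 80.2 and 87.7 CPM in ethanol (8.38-fold; edgeR adjusted p = 5.52e-18), whereas the opposing Fkbp4 had a log2 change of 0.10, which did not pass. The acetyltransferase gene Ep300 had 231 and 259 CPM in dexamethasone, against 179 and 160.3 CPM in ethanol, and the corepressor Nrip1 had 59.1 and 61.0 CPM in dexamethasone, against 45.5 and 46.0 CPM in ethanol. With Nr3c1 lower and Fkbp5 higher, the 2 genes of this list with the largest changes lay on opposite sides of 0.

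Of the 15 genes of cohesin, its regulators and CTCF, 1 was called higher and 12 lower (6.67% and 80%, beside 19.8% and 18.2% over all genes), with a median of -0.28. Without the GC content trend 2 were called lower (13.3%, near the 11.6% over all genes), at a median of -0.06. Their median GC content was 42.4%. Esco2, a cohesin acetyltransferase, had 37.6 and 36.4 CPM in dexamethasone, against 60.3 CPM in each ethanol library (log2 change -0.70), and was at -0.23 without the trend (edgeR adjusted p = 0.00569). Stag2, a cohesin subunit, had 143 and 132 CPM in dexamethasone, against 193 CPM in each ethanol library (log2 change -0.49), and was at -0.05 without it. In both genes the groups did not overlap.

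Of 30 ribosomal protein genes 21 rose and 1 fell (70% and 3.33%, beside 19.8% and 18.2% over all genes), 7 of them by at least 2-fold, with a median of 0.25. Without the trend 14 rose and 3 fell (46.7% and 10%, beside 10% and 11.6% over all genes). Rpl27 had 149 and 157 CPM in dexamethasone, against 38.1 and 37.6 CPM in ethanol (4.03-fold; edgeR adjusted p = 5.62e-20). Rps6 averaged 357 CPM in dexamethasone and 91.1 CPM in ethanol, Rpl5 had 292 and 233 CPM in dexamethasone, against 116 and 115 CPM in ethanol, and Rpl11 had 305 and 256 CPM in dexamethasone, against 127 and 133 CPM in ethanol. Rps9, Rps3 and Rpl32 had log2 changes of 0.01, 0.01 and 0.02, which did not pass. These genes and Gapdh have many near-identical processed pseudogenes, and how reads with several alignments were counted is not given in the sources used here, so the counts of single members are uncertain.

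Genes that changed at least 2-fold sometimes lay side by side. Among protein-coding genes with a mean of at least 1 CPM whose large change was kept without the trend, 21 of 230 higher genes (9.13%) had a next neighbour within 100 kb that was also higher, and 6 of 80 lower genes (7.5%) had one that was also lower. Over all 10704 such protein-coding genes, 2.52% lay next to a higher one and 0.719% next to a lower one. Of 17 neighbouring pairs 15 moved in the same direction. With 230 higher and 80 lower genes many pairs would share a direction in any case, so nothing is read from the 15. On chromosome 4, Orm1, Orm3 and Orm2 followed each other with log2 changes of 3.72, 4.62 and 2.66, and Spsb1, H6pd and Gpr157 with 4.34, 1.27 and 1.98. On chromosome 5 the neighbours Cxcl5 and Cxcl3 changed by -3.17 and -2.21 and the neighbours Ereg and Areg by -1.39 and -1.11. On chromosome 11 Ccl2 and Ccl7, whose starts are 10141 bases apart, changed by -2.77 and -2.23. Duplicated genes such as the Orm and chemokine families resemble each other in sequence, and the part of shared reads in these pairs was not tested.

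The response was also set beside that of the other 5 states of the series: empty vector, wild-type NIPBL and the C1, C2 and C1C2 mutants. Each had IPTG and its own ethanol libraries, which share the library blocks of their treatment. Of the 308 large rises with a mean of at least 1 CPM and a call kept without the trend, 290 (94.2%) were called higher in all 5, and 197 were at least 2-fold higher in all 5. Of the 138 such falls 119 (86.2%) were called lower in all 5 and 70 were at least 2-fold lower. Under 1 CPM the counts were 109 of 265 rises (41.1%) and 33 of 210 falls (15.7%). The median log2 change of the rises was 1.51 without IPTG and 1.29 to 1.41 in the other states, and that of the falls was -1.36 without IPTG and -1.24 to -1.20 in the others. The members were chosen on the change without IPTG, and the share of all tested genes called in all 5 was not counted. In every state the dexamethasone libraries lay on 1 side of the GC content trend and the ethanol libraries on the other. These counts and medians are therefore a description.

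With IPTG the empty-vector cells had 54.4 and 56.5 CPM of Nipbl in dexamethasone and 65.1 and 62.6 CPM in ethanol, well below the levels without IPTG. The difference between the response without IPTG and that with IPTG passed the test in 29 of 16934 genes (0.171%; edgeR's quasi-likelihood test on the interaction, Benjamini-Hochberg adjustment). An unadjusted p under 0.05 was found in 857, about the number that this threshold passes when no response differs. Fits of all 24 libraries moved the 29, from 22 with the GC content trend removed to 85 with no filter on low counts. Of the 446 large changes plotted, 19 had a called difference. They were chosen on their change without IPTG, so nothing is read from that count or from which response was larger. Socs2 rose by 2.76 on the log2 scale without IPTG and by 1.60 with it (difference 1.16 ± 0.14 SE). With IPTG it had 38.4 and 40.6 CPM in dexamethasone, against 12.5 and 13.6 CPM in ethanol, so the ethanol level was higher there than without IPTG. Sphk1, a kinase that makes sphingosine phosphate, had 199 and 172 CPM in dexamethasone, against 22.0 and 22.9 CPM in ethanol, without IPTG, and 137 and 131 CPM in dexamethasone, against 27.1 and 26.2 CPM in ethanol, with IPTG. Suox differed in the opposite sense, with 114 and 107 CPM in dexamethasone, against 10.2 and 10.7 CPM in ethanol, with IPTG (difference -0.71 ± 0.11 SE). No group had IPTG without the hairpin, so loss of NIPBL and IPTG itself cannot be told apart.

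The largest such difference among the named genes was that of Sox4, a transcription factor, named after its values were seen. Without IPTG it had 147 and 106 CPM in dexamethasone, against 34.2 and 38 CPM in ethanol (3.5-fold; edgeR adjusted p = 8.23e-06). With IPTG it had 44.8 and 41.1 CPM in dexamethasone, against 44.6 and 50.6 CPM in ethanol, groups that overlapped. In cells given IPTG and wild-type NIPBL it had 68.0 and 73.5 CPM in dexamethasone, against 40.4 and 43.2 CPM in ethanol. Nipbl in those cells had 66.2 and 55.1 CPM in dexamethasone and 70.4 and 62.7 CPM in ethanol, near its levels in empty-vector cells with IPTG. Whether RNA of the construct is counted as Nipbl was not tested. For Sox4 the difference of responses between no IPTG and IPTG in empty-vector cells was 1.96 ± 0.28 (SE; edgeR adjusted p = 0.0109). Sox4 overlaps Gm26735 on the other strand over 54.6% of its length.

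**Figure D5:**
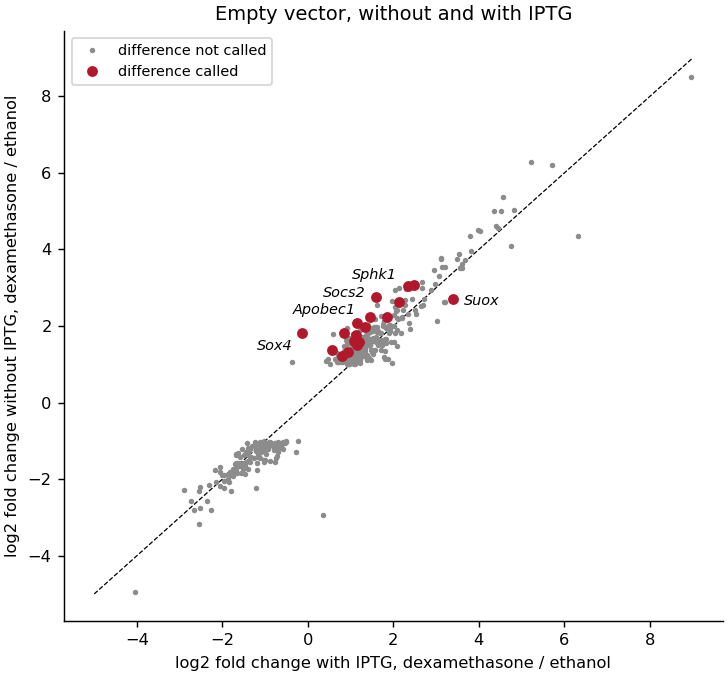
Log2 fold change (dexamethasone over ethanol) without IPTG (vertical axis) against that with IPTG (horizontal axis) in empty-vector cells, for the 446 genes with a large change without IPTG, a mean of at least 1 CPM and a call kept without the GC and length trend. The dashed line marks equal responses, and the 19 genes with a called difference are red. Sox4 lies near 0 with IPTG (-0.15) and at 1.81 without it.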

How the data were processed

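Total RNA libraries were made with Illumina Stranded Total RNA and Ribo-Zero Plus, per the labels' protocols. The deposited values are counts of reads per gene that the authors made. Per the submitters' processing notes the tools were bcl2fastq 2.20, cutadapt 1.18, STAR 2.7.0f and featureCounts of Subread 2.0.3, with build mm10. The annotation release, the strand setting and the treatment of reads with several alignments are not given in the sources used here. Samples were grouped by title. In 1 library of another group (IPTG, C1C2, ethanol, replicate 2) the title says ethanol and the treatment label dexamethasone.

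From the counts, 16934 genes passed edgeR's filterByExpr and 38407 did not. A quasi-likelihood model with TMM factors was fitted to 24 libraries in 12 groups (R 4.3.3, edgeR 4.0.16, limma 3.58.1), and p-values were adjusted by Benjamini-Hochberg over all tested genes, with calls at 0.05. All 55341 gene identifiers were found in GENCODE vM21, from which GC content, length and overlaps were taken, and 55298 had the same coordinates. The trend was removed as a spline on GC content and length per library. Model code was tested on simulated data. The 4 libraries held 34557928 to 57381517 counts and the median biological coefficient of variation was 6.43%. The correlation of deviations between libraries of the same number was -0.11, so the numbers were not taken as pairs. Alternatives were other scaling, filters, sample sets, a replicate block, trend removal, DESeq2 1.42.0 and leaving out each library.

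Named genes were taken from those called, changed at least 2-fold, with a mean of at least 1 CPM, groups that did not overlap and a proper gene name. They were the 15 largest fold changes and the 8 largest changes in CPM in each direction, up to 6 in each direction that lost the call without the trend, and up to 6 with the smallest p for the difference with IPTG. Added to these were up to 5 members of each list with the smallest p, and Nipbl, Mau2 and Nr3c1. Of these, 2 genes are not reported here. Sox4, the genes with very low ethanol counts, and list members outside this rule were named after their values were seen. The gene lists and the genes described were chosen with earlier results of these data known.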

Additional observations from a re-analysis of the deposited data

Results flagged for a closer look

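In 11 named genes the response to dexamethasone differed between empty-vector cells without IPTG and with IPTG by a test of the difference itself (edgeR's quasi-likelihood test, adjusted p of 0.0219 or less). Some of them were named for a small p in this same test, and Sox4 after its values were seen. The genes were named largely on their change without IPTG, so nothing is read from their number or from the signs. The differences, in log2 units of the response without IPTG minus that with IPTG, were 0.59 for Fkbp5, 0.97 for Cebpd, 1.16 for Socs2, 0.80 for Lfng, 0.55 for Jag1, 0.38 for Gata3, 0.71 for Sphk1, 0.92 for Rhob, 0.76 for Apobec1 and 1.96 for Sox4, and -0.71 for Suox. In Socs2 the ethanol libraries also differed, with 6.42 and 7.41 CPM without IPTG and 12.5 and 13.6 CPM with IPTG. In Fkbp5 the dexamethasone libraries had 698 and 708 CPM without IPTG and 407 and 398 CPM with IPTG. IPTG itself and the loss of NIPBL cannot be told apart in these differences. The number of genes called for such a difference moved with the processing, as given below.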

How the results depend on the processing

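The number of genes whose response differed between no IPTG and IPTG moved most, from 29 to 85 with no filter on low counts, 53 in a fit of the 8 libraries compared, 71 with a replicate block, 77 with a block within treatment, 63 with DESeq2 and 7 to 24 with 1 library left out. A strict filter on low counts left 242 genes at least 2-fold higher and 110 lower, and 297 higher and 140 lower in the test against 1.5-fold, where DESeq2 had 134 lower. With a GC content trend alone removed, 1630 genes were called higher and 1925 lower, and with GC content and length 1699 and 1961. Directions reversed in Pds5b (0.01) and Mau2 (-0.02) without the GC content trend, and in Xiap (0.0), Pds5b (0.02) and Mau2 (-0.0) without GC content and length. The cause was not tested.

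With a replicate block 3728 genes were called higher and 3416 lower, and with the numbers crossed, an alternative chosen after seeing the data, 3686 and 3370. With 1 library left out the calls were 2451 to 2957 higher and 2421 to 2543 lower. Genes under 1 CPM kept their large changes least often. With 2 libraries a group, handling that moves with treatment cannot be separated from hormone. The p-values cover only the spread between libraries, estimated from all 24 together.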
